A study of Mus musculus with 40 samples.

Results

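The nuclear genes of oxidative phosphorylation were followed in mouse embryonic stem cells as they left self-renewal in retinoic acid (RA), in wild type and in cells carrying a GLP mutation. Members were all gene symbols that begin with Nduf followed by a, b, c, s or v and a digit, Uqcr, Cox followed by 4 to 8, or Atp5, and the symbols Sdha to Sdhd. This gave 85 of the 23228 symbols listed for every library. Of these, 82 encode subunits or close relatives of them: 35 of complex I, 4 of complex II, 8 of complex III, 20 of complex IV and 15 of complex V. The other 3 (Cox4nb, Atp5s and Atp5sl) match by name but encode no subunit. Cox7a2l, a supercomplex assembly factor related to COX7A, was counted with complex IV. Ndufa4 and Ndufa4l2, named after complex I, were counted with complex IV, where the NDUFA4 protein is now placed.

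The respiratory chain passes electrons from NADH (complex I, NADH dehydrogenase) and succinate (complex II, succinate dehydrogenase) through ubiquinone to complex III and by cytochrome c to complex IV, cytochrome c oxidase. Complexes I, III and IV pump protons, and complex V, the ATP synthase, makes ATP from the return flow. Most subunits are encoded in the nucleus and some in mitochondrial DNA; the mitochondrially encoded genes were not analysed here. Several complex IV subunits exist as a broad form and a tissue-restricted form of heart and skeletal muscle, lung or testis. Pluripotent stem cells are known for high glycolysis and for immature mitochondria.

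RNA was measured in 4 groups with 2 libraries each, 8 in all: wild-type cells and cells homozygous for GLP 3A, either left untreated or given 1 uM all-trans RA with LIF withdrawn at the same time. GLP, encoded by Ehmt1, is a histone H3 lysine 9 methyltransferase, and the series asks about its part in propagating that mark. All groups shared a strain background labelled C57BL/6 (mixed), had been grown on feeders with serum and LIF, and were passaged without feeders in 2i medium. The labels do not give the length of RA treatment, how many clones were used or whether libraries came from separate cultures, so p-values measure the spread between these libraries only. RA and LIF withdrawal cannot be told apart here, and "with RA" means both.

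The values are RPKM, reads per kilobase of gene, scaled to the mapped reads of the library, so levels of different genes can be compared per length. A difference is the difference of group means of log2(RPKM + 1), given with its standard error (SE) from limma, and a gene was called at a Benjamini-Hochberg adjusted p under 0.05 over 13198 tested genes. Tested genes had at least 1 RPKM in at least 2 libraries, and 81 of the 85 members passed. Summed over all symbols, the wild-type libraries held 748556 and 762180 RPKM without RA but 529706 and 554854 with it, and the GLP 3A libraries 822877 and 772615, then 509341 and 513354. Totals were thus lower with RA, and results are given as deposited and with 3 rescalings: the TPM scale (each library brought to the same sum), median-of-ratios scaling and quantile normalization. The TPM scale moved the median RA difference of all genes from -0.03 to 0.39 in wild type and from -0.07 to 0.50 in GLP 3A.

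The libraries numbered 2 stood apart from those numbered 1 in 2 ways. Their estimated relative depth was 0.435 to 0.574, against 0.959 to 1.25, and the hepatocyte genes Alb, Apoa1 and Ttr summed to 222 to 663 RPKM in all 4 of them, against 2.06 to 6.76 RPKM in the 4 numbered 1. Alb alone stood at 177 to 520 RPKM in the former and at 1.06 to 5.64 in the latter. The part of this RNA in the results below was not tested, and members' medians from each number alone are given beside the group results. Ehmt1 itself stood at 18.4 and 17.6 RPKM in wild type without RA, 24.4 and 23.5 with RA, 14.1 and 14.3 in GLP 3A without RA and 12.96 and 13.9 with RA; its RNA level does not check the mutation. Pluripotency genes summed to 4298 to 5259 RPKM in untreated libraries and 139 to 376 with RA, and smooth muscle genes to 18.1 to 27.6 and 940 to 1948. In bulk RNA, fewer cells of a type and less RNA per cell cannot be told apart.

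Promoter sequences are shown for genes whose levels are described below: the 3 genes of ATP synthase subunit c, the broad and testis forms of COX6B, the complex I gene with the largest RA difference and the 1 member called higher in GLP 3A without RA. RefSeq promoters (GRCm38.p6) were matched by symbol for 69 of the 85 members. Each sequence is the 250 bases before the annotated start, 5′ to 3′ on the gene's strand; all 7 lie on the minus strand. Capitals mark matches on either strand to the motifs of nuclear respiratory factor 1 (NRF1, GCGC, any base, then TGCGC), ETS factors such as GABP (CCGGAAG), estrogen-related receptors (ERR, TCAAGGTCA) and the CCAAT box (CCAAT).
Atp5g1, chr11:96075632-96075881: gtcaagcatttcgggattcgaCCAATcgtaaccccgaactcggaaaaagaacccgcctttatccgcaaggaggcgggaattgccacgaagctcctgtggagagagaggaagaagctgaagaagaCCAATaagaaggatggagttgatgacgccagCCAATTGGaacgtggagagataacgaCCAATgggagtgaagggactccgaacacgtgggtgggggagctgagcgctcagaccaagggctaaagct
Atp5g2, chr15:102671048-102671297: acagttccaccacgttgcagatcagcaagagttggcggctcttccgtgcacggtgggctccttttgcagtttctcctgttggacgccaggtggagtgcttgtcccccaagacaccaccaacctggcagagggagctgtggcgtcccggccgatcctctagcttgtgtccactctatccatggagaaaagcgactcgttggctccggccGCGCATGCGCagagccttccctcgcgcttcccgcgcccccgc
Atp5g3, chr2:73911327-73911576: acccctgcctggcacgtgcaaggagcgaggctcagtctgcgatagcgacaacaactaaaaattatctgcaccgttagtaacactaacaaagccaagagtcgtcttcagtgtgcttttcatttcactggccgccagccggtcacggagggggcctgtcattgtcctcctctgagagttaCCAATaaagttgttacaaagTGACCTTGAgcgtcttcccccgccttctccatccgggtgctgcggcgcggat
Cox6b1, chr7:30626115-30626364: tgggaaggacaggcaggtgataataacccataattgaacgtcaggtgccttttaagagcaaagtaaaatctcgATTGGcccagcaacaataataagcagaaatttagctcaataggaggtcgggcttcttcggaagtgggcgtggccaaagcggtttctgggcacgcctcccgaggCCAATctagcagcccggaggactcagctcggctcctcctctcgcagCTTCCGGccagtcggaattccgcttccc
Cox6b2, chr7:4753095-4753344: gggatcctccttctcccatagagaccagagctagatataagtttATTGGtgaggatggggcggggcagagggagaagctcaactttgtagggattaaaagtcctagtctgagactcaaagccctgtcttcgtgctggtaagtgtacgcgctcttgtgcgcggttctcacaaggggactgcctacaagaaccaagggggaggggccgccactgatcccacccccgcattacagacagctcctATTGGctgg
Ndufb4, chr16:37654369-37654618: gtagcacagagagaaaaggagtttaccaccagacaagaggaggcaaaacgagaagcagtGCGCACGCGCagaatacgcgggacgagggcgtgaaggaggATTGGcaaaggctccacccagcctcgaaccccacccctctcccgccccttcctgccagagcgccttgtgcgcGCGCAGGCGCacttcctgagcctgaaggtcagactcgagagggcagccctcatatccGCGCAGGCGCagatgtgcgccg
Sdhd, chr9:50603850-50604099: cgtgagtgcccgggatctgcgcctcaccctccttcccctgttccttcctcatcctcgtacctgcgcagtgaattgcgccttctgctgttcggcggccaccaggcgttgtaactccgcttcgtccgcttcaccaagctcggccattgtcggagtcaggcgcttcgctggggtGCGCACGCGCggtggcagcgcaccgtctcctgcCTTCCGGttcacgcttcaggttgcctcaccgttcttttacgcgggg
In these 250 bases the subunit c genes differ: Atp5g1 has 5 CCAAT matches (2 of which overlap on opposite strands) and no NRF1 match, Atp5g2 has 1 NRF1 match and no CCAAT, and Atp5g3 has 1 ERR match and 1 CCAAT. Ndufb4 has 3 NRF1 matches, and Sdhd has 1 NRF1 and 1 ETS match. Cox6b1 has 1 ETS and 2 CCAAT matches, whereas Cox6b2 has 2 CCAAT matches only. With the 50 bases after the start included, Atp5g3 also has an NRF1 match and Sdhd an ERR match.

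Over the 300-base RefSeq windows (250 before to 50 after the start), 75 promoters of the matched members were searched on both strands, and 1 pair of matches overlapped. The NRF1 motif was in 24% of them, against 4.60% of 32851 promoters of all genes. The YY1 motif (AAGATGGCG) was in 12% against 1.403%, the ETS motif in 21.3% against 8.86%, and the ERR motif in 2.67% against 0.423%. CCAAT was in 42.7% against 37.4%, and TATAAA in 10.7% against 13.6%. A match describes letters and is not a binding site. Among tested members, the 17 with an NRF1 match had a median RA difference of -0.47 in wild type, and the 50 without one had -0.61; in GLP 3A the medians were -0.60 and -0.52.

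With RA, the oxidative phosphorylation genes were lower as a group in both genotypes on the deposited scale. In wild type 63 of 81 members were called lower and 1 higher, where 34.8% of all tested genes were called lower and 33.7% higher, and the members' median difference was -0.61 against -0.03 over all genes. In wild type 68.5% of all genes were called in either direction, and in GLP 3A 70.4%. The GLP 3A counts were again 63 and 1, with a background of 38.1% lower and 32.3% higher, and the median was -0.56 against -0.07. The 2 lists of 63 share 58 genes, 92.1% of each. The median member stood at 171 and 180 RPKM in wild type without RA and at 112 and 124 with RA, and at 174 and 170 in GLP 3A without RA and 124 and 124 with RA. Members are abundant transcripts, and 71 of them average 50 RPKM or more; among all 1926 genes at that level (a level chosen after values were seen) the median RA difference was -0.44 in wild type and -0.58 in GLP 3A, beside the members' own -0.61 and -0.56. At that level 57 of 71 members (80.3%) were called lower in wild type and 58 (81.7%) in GLP 3A, against 55.9% and 64.7% of all such genes. From libraries numbered 1 alone the members' median was -0.66 in wild type and -0.59 in GLP 3A, and from those numbered 2 it was -0.53 and -0.51.

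How far the group fell depends on the scale. TPM scaling called 23 members lower and 10 higher in wild type, and 11 lower and 26 higher in GLP 3A, with medians of -0.15 and 0.08. On that scale 75.5% of all calls were higher in wild type and 79.0% in GLP 3A, against 49.3% and 45.9% as deposited. Quantile normalization gave 38 lower and 5 higher in wild type and 18 lower and 14 higher in GLP 3A, and median-of-ratios scaling 57 and 3, and 46 and 4. Of all genes, TPM scaling called 16.7% lower in wild type and 14.9% in GLP 3A, quantile normalization 34.8% and 34.6%, and median-of-ratios scaling 31% and 30.9%. The shares of all genes called higher were, in the same order, 51.7% and 55.8%, 30.1% and 30.4%, and 37% and 38.4%. In GLP 3A the members' share called lower was 22.2% with quantile normalization, below that of all genes, and 13.6% with TPM scaling, near it. Their shares called higher there, 17.3% and 32.1%, also lay below those of all genes. Set against the median of all genes, the members' median differed by -0.58 (deposited values), -0.56 (median of ratios) and -0.54 (TPM scale) in wild type. In GLP 3A these gaps were -0.49, -0.46 and -0.42. TPM and median-of-ratios scaling multiply each library by 1 factor, so the gap could move only through the 1 added before the logarithm. Their likeness is therefore no check on the scale. With quantile normalization, which can change the gap, it was -0.18 in wild type and 0.02 in GLP 3A. As a share of summed RPKM the members made up 2.89% and 2.89% in wild type without RA and 2.55% and 2.68% with RA, and 2.72% and 2.82% in GLP 3A without RA and 2.86% and 2.87% with RA. That share was lower with RA in both wild-type libraries and higher with RA in both GLP 3A libraries, without overlap in either genotype.

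**Figure D1:**
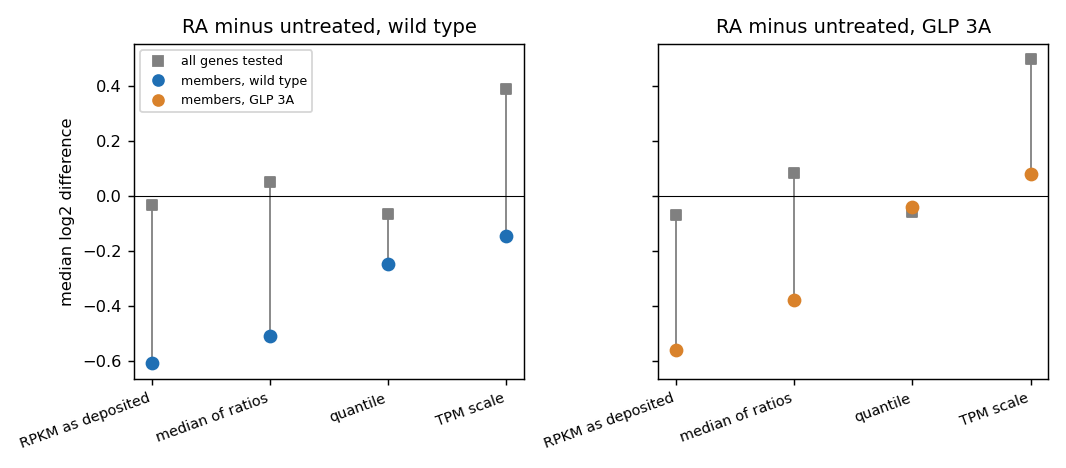
Median log2 difference, RA minus untreated, of all 13198 tested genes (grey squares) and of the 81 tested members (circles) in wild type (left) and GLP 3A (right), under 4 scalings on the x axis. The members lie below all genes by 0.42 or more with 3 scalings. Median-of-ratios and TPM scaling rescale whole libraries and so can hardly change this gap. With quantile normalization it is -0.18 in wild type and 0.02 in GLP 3A.

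Under all 4 scalings 23 members were called lower in wild type and 11 in GLP 3A, and 10 were on both lists: Ndufb4 and Ndufv3 of complex I, Uqcrb of complex III, Cox6c and Ndufa4l2 of complex IV, Atp5a1, Atp5c1, Atp5g1 and Atp5j of complex V, and Atp5sl, a relative of ATP synthase factor B. The Atp5j locus overlaps that of Gabpa, and reads of the pair may not be separable. Ndufa2, an accessory subunit of complex I, was the 1 member called higher under all 4 scalings in both genotypes. It stood at 93.7 and 100.01 RPKM in wild type without RA, 107 and 111 with RA, 90.2 and 89.6 in GLP 3A without RA and 115 and 117 with RA. Its groups do not overlap, and the difference was 0.17 ± 0.06 (SE, n = 2 per group, limma adjusted p = 0.049) in wild type and 0.37 ± 0.06 (adjusted p = 0.0022) in GLP 3A. The wild-type call was lost in each of the 8 fits that leave out 1 library (adjusted p 0.052 to 0.25), and its locus overlaps that of Tmco6.

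The complexes did not shift by the same amount. Median RA differences in wild type were -0.47 for complex I, -0.36 for complex II, -0.73 for complex III, -0.79 for complex IV and -0.76 for complex V. In GLP 3A they were -0.40, -0.43, -0.62, -0.49 and -0.76. The complex I median in wild type moved most with the library number, from -0.58 in number 1 to -0.36 in number 2, and that of complex V was -0.82 and -0.68. Complex I had the lowest share of called members, with 22 of 35 lower and 1 higher in wild type and 23 and 1 in GLP 3A. Its shares called lower were 62.9% and 65.7%, beside 34.8% and 38.1% of all tested genes. Among all genes averaging 50 RPKM or more, 55.9% and 64.7% were called lower, with medians of -0.44 and -0.58. The complex I values lie near these. In complex III all 8 members were called lower in both genotypes, and in complex V 14 of 15 and 15 of 15. Complex IV had 13 of 16 and 12 of 16, and complex II 4 of 4 and 3 of 4. With TPM scaling the median of complex I was 0.01 in wild type and 0.24 in GLP 3A, and that of complex V was -0.28 and -0.12.

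**Figure D2:**
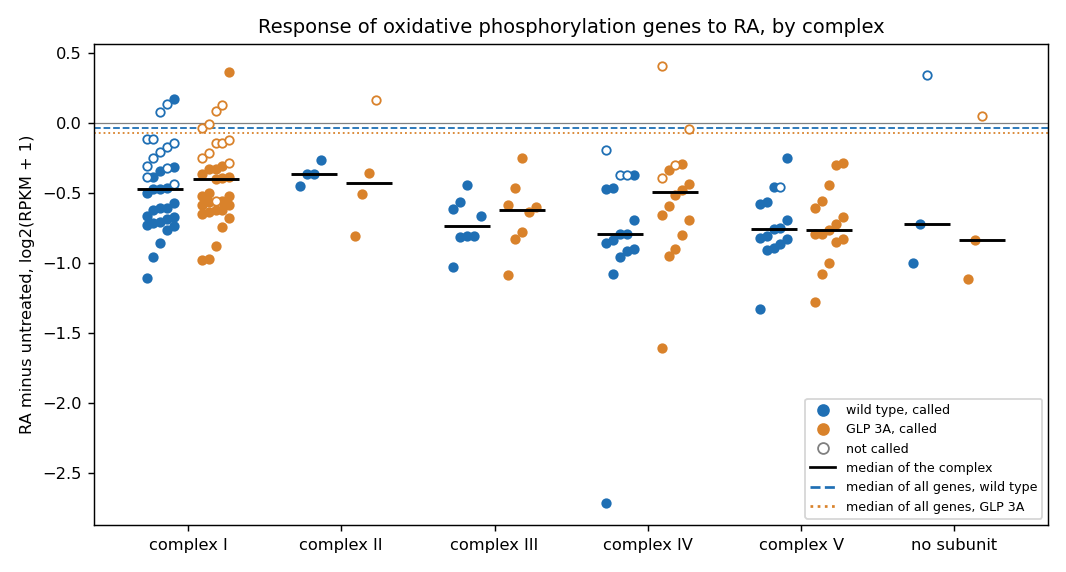
RA minus untreated difference, in log2(RPKM + 1) of the deposited values, of each tested member by complex in wild type (blue) and GLP 3A (orange). Filled points passed the test at an adjusted p under 0.05, black bars are medians, and dashed and dotted lines are medians of all genes; most complex III and V points lie below -0.4.

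Ratios within a library need no scaling. Summed RPKM of complex I over complex V was 0.628 and 0.644 in wild type without RA and 0.747 and 0.772 with RA, and 0.624 and 0.601 in GLP 3A without RA and 0.801 and 0.751 with RA. All 4 RA libraries lie above all 4 untreated ones. The same holds for complex II over complex V, at 0.0547 to 0.0577 untreated and 0.0677 to 0.0732 with RA, and for complex IV over complex V, at 0.712 to 0.799 and 0.823 to 0.869. Complex III over complex V showed no such separation, at 0.264 to 0.290 untreated and 0.258 to 0.311 with RA. Summed complex V RNA was thus lower relative to complexes I, II and IV with RA, in libraries of both numbers and in both genotypes. Sums weigh abundant genes most. By median RA difference the order of complexes IV and V in wild type was the reverse, at -0.79 and -0.76. These ratios are given as a description, with no test.

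Complex I begins with the flavin and iron-sulphur subunits that take electrons from NADH. Of its 7 core members 5 were called lower in wild type and 7 in GLP 3A, as deposited. Ndufv1, which binds the flavin, stood at 86.9 and 88.0 RPKM in wild type without RA and at 54.5 and 52.0 with RA (-0.71 ± 0.10, limma adjusted p = 8.9e-04), and at 95.4 and 91.6 in GLP 3A without RA and 69.3 and 57.3 with RA (-0.56 ± 0.10, adjusted p = 0.0023). The groups do not overlap in either genotype, although on the TPM scale the GLP 3A difference was 0.07. Ndufs3 and Ndufv2 were the core members not called in wild type, at -0.21 ± 0.10 and -0.38 ± 0.19. Of the 28 accessory members 17 were called lower in wild type (60.7%) and 16 in GLP 3A (57.1%), with Ndufa2 the 1 called higher in each. Of all tested genes 34.8% and 38.1% were called lower, and 55.9% and 64.7% of those averaging 50 RPKM or more.

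Ndufb4, an accessory subunit of the membrane arm, had the largest decrease in complex I. Its levels were 248.8 and 290 RPKM in wild type without RA and 122 and 126 with RA, and 288 and 252 in GLP 3A without RA and 134 and 139 with RA. Every untreated library lies far above every RA library, and the groups do not overlap. The differences were -1.11 ± 0.10 (limma adjusted p = 1.7e-04) and -0.98 ± 0.10 (2.6e-04). Ndufv3, an accessory subunit beside the flavin site, followed with -0.96 ± 0.08 and -0.97 ± 0.08. At the other end stood Ndufa3, the most abundant complex I member, at 383 and 418 RPKM in wild type without RA and 344 and 399 with RA. Its groups overlap, and the differences of -0.11 ± 0.12 and -0.01 ± 0.12 did not pass the test as deposited. Ndufa3 was called higher on the TPM scale (0.37 in wild type and 0.63 in GLP 3A) and with quantile normalization (0.36 and 0.68). As deposited, Ndufb7, Ndufa11, Ndufa8 and Ndufa13 were not called in either genotype either, with differences of 0.08, 0.14, -0.11 and -0.17 in wild type. The Ndufa13 locus overlaps that of Tssk6.

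Complex II is the only complex with all of its subunits encoded in the nucleus. Sdha, its flavoprotein, stood at 152 and 134 RPKM in wild type without RA and 117 and 105 with RA, and at 157 and 144 in GLP 3A without RA and 110 and 101 with RA. It was called lower in both (-0.37 ± 0.10 and -0.51 ± 0.10), as was the iron-sulphur subunit Sdhb (-0.36 ± 0.09 and -0.35 ± 0.09), but on the TPM scale both had positive differences in both genotypes. The membrane anchors Sdhc and Sdhd differed between the genotypes and are described with them below.

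In complex III the core protein Uqcrc1 fell from 187 and 183 RPKM to 95.5 and 85.4 in wild type (-1.02 ± 0.12, limma adjusted p = 5.0e-04), and it stood at 166 and 167 in GLP 3A without RA and 109 and 85.3 with RA (-0.78 ± 0.12, adjusted p = 0.0016). The wild-type call held under all 4 scalings. Uqcrb, a small accessory subunit and the most abundant of the complex, fell from 538 and 524 RPKM to 281 and 329 in wild type (-0.80 ± 0.09) and from 628 and 617 to 294 and 293 in GLP 3A (-1.08 ± 0.09). It passed under all 4 scalings in both genotypes. The Rieske iron-sulphur protein Uqcrfs1 (-0.66 ± 0.09 and -0.63 ± 0.09) and core protein Uqcrc2 (-0.56 ± 0.07 and -0.60 ± 0.07) were also called lower as deposited.

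Complex V holds the most abundant members. Atp5b, the catalytic beta subunit, stood at 1420 and 1317 RPKM in wild type without RA and 859 and 762 with RA, and at 1343 and 1331 in GLP 3A without RA and 760 and 747 with RA. The groups do not overlap, with differences of -0.76 ± 0.09 and -0.83 ± 0.09, called in both genotypes; with quantile normalization they were 0.0012 and 0.0072. Its partner Atp5a1, the alpha subunit, fell from 668 and 685 RPKM to 378 and 365 in wild type (-0.86 ± 0.07) and from 755 and 775 to 359 and 364 in GLP 3A (-1.08 ± 0.07), under all 4 scalings. Atp5c1, the gamma subunit of the central stalk, did so too (-0.89 ± 0.07 and -0.85 ± 0.07). The delta subunit gene Atp5d was the least shifted of the complex in wild type, at -0.25 ± 0.09, and stood at -0.30 ± 0.09 in GLP 3A, and its sign turned on the TPM scale and with quantile normalization.

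ATP synthase subunit c, which forms the rotating ring in the membrane, is encoded by Atp5g1, Atp5g2 and Atp5g3. Their proteins differ in the import sequence and give the same mature subunit. Atp5g1 stood at 279 and 315 RPKM in wild type without RA and 112 and 124 with RA, and at 401 and 379 in GLP 3A without RA and 189 and 136 with RA. It fell more than any other complex V member in both genotypes, by 1.32 ± 0.16 (limma adjusted p = 5.1e-04) and 1.27 ± 0.16 (5.6e-04) on the log2 scale, under all 4 scalings. Atp5g2 stood at 740 and 911 RPKM in wild type without RA and 555 and 643 with RA (-0.46 ± 0.14), and Atp5g3 at 676 and 597 and then 427 and 425 (-0.58 ± 0.08). Both were called lower in both genotypes as deposited, but the sign of Atp5g2 turned on the TPM scale and with quantile normalization. Within the 3 genes Atp5g1 made up 16.5% and 17.3% in wild type without RA and 10.3% and 10.4% with RA. In GLP 3A its share was 19.8% and 18.8%, and then 15.7% and 10.9%, so the untreated and RA groups do not overlap in either genotype. Atp5g1 lies on chromosome 11 (95934106 to 95937008 in mm9), Atp5g2 on chromosome 15 (102493298 to 102501478) and Atp5g3 on chromosome 2 (73746506 to 73749351).

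**Figure D3:**
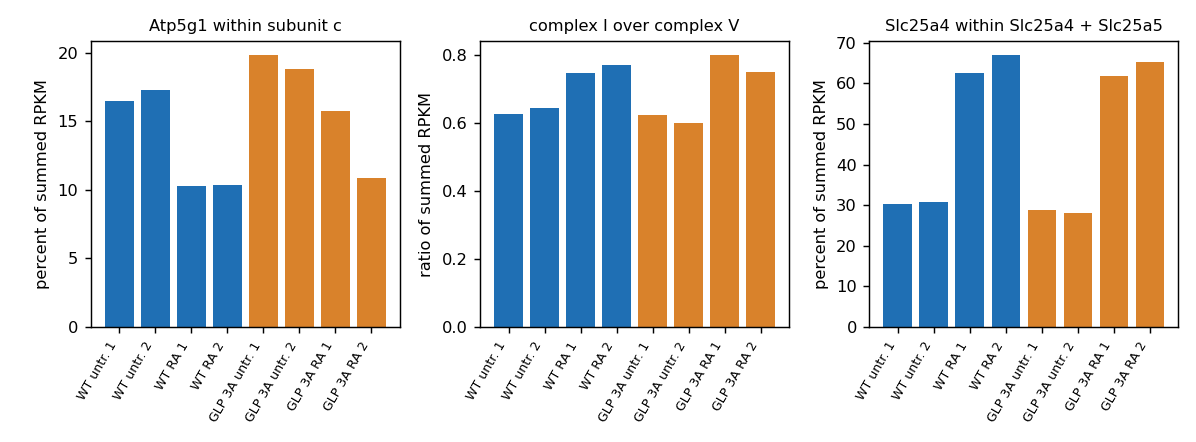
Per library (untr., untreated; 1 and 2, library number), the share of Atp5g1 in the summed RPKM of Atp5g1, Atp5g2 and Atp5g3, the ratio of summed complex I to complex V RPKM, and the share of Slc25a4 in Slc25a4 plus Slc25a5. Bars start at 0; in wild type (blue) the Atp5g1 share falls from 17.3% or less to 10.4% or less, and in each panel all untreated libraries lie on 1 side of all RA libraries.

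The catalytic core of complex IV is mitochondrially encoded, and the nuclear genes encode the subunits around it. Of these, Cox5a fell from 509 and 493 RPKM to 280 and 237 in wild type (-0.96 ± 0.09, limma adjusted p = 2.2e-04), under all 4 scalings, and stood at 527 and 526 in GLP 3A without RA and 288 and 277 with RA (-0.90 ± 0.09). Cox5b, the zinc-binding subunit and the most abundant of the complex, was not called: it stood at 726 and 798 RPKM in wild type without RA and 598 and 744 with RA, and at 676 and 601 and then 609 and 630 in GLP 3A. Its groups overlap in both genotypes, with differences of -0.19 ± 0.13 and -0.04 ± 0.13. Cox5b was called higher on the TPM scale, by 0.29 and 0.60. Cox6c, a small membrane subunit, fell under all 4 scalings in both (-0.91 ± 0.09 and -0.95 ± 0.09).

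Cox4i1, the broad form of subunit 4, had the largest gap between genotypes among the abundant members. It stood at 583 and 593 RPKM in wild type without RA and 321 and 338 with RA (-0.83 ± 0.10, limma adjusted p = 4.1e-04), and at 505 and 482 in GLP 3A without RA and 436 and 371 with RA (-0.29 ± 0.10, adjusted p = 0.031). On the TPM scale and with quantile normalization the GLP 3A difference turned to 0.35 and 0.38. The difference of the responses was 0.54 ± 0.13 and did not pass the test over all genes (adjusted p = 0.097). Its lung form Cox4i2 was near the floor, between 0.389 and 1.49 RPKM, and made up at most 0.285% of the pair in any library.

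Tissue-restricted forms of complex IV were mostly silent in all groups. Cox6a2 and Cox8b (heart and skeletal muscle) and Cox7b2 and Cox8c (testis) did not pass the filter. Cox8b and Cox8c stayed under 1 RPKM in every library, and Cox7b2 reached 1.87 RPKM. Cox6a2 was listed at 0 in 6 libraries and reached 2.78 RPKM in RA-treated GLP 3A replicate 2. The Cox6a2 locus overlaps that of Itgad, and reads of the pair may not be separable. The corresponding broad forms Cox6a1, Cox7b and Cox8a stood at 134 RPKM or more in every library. Skeletal muscle markers summed to 6.44 to 7.26 RPKM in untreated libraries and to 35.0 to 147 with RA, mostly Acta1, while the defining genes Myod1, Myog and Myf5 stayed at 0.113 RPKM or less. Cardiac markers summed to 8.47 to 11.4 and 25.2 to 58.4 RPKM, and Actc1 reached 32.1. Of 7 tested cardiac markers 4 were called higher and 1 lower in wild type, and 5 and 1 in GLP 3A. Tnni3 went from 4.04 and 4.59 RPKM to 1.06 and 1.55 in wild type. In GLP 3A it went from 3.22 and 3.74 to 0.6245 and 1.06. Of 3 tested skeletal markers 2 were called higher in each genotype, and 1 was called lower in wild type.

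The exceptions were Cox6b2 and Cox7a1. Cox6b2, known as the testis form of COX6B, stood at 110 and 125 RPKM in wild type without RA, 82.4 and 99.4 with RA, 106 and 101 in GLP 3A without RA and 66.6 and 87.8 with RA. Against Cox6b1, at 614 and 673 RPKM in wild type without RA, it made up 15.2% and 15.7% of the pair there and 12.0% to 15.4% in the other libraries with RA. The defining spermatid genes Prm2 and Tnp1 were listed at 0 in every library, and Prm1 reached 0.746 RPKM. The whole list of 10 germ cell genes summed to 13.6 to 14.3 RPKM in untreated libraries and 2.60 to 4.01 with RA, mostly Sycp3, at 5.24 to 9.32 RPKM untreated, and Ldhc, at 2.84 to 6.62; the part of such cells was not tested. Cox6b2 was called lower in GLP 3A only (-0.43 ± 0.15, adjusted p = 0.043), with -0.37 ± 0.15 in wild type (adjusted p = 0.071), a difference between genotypes of -0.06 ± 0.22 that did not pass. Its GLP 3A difference was 0.20 on the TPM scale.

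Cox7a1, the muscle form of COX7A, stood at 24.8 and 22.3 RPKM in wild type without RA and 12.1 and 9.32 with RA, and at 23.4 and 21.6 in GLP 3A without RA and 23.3 and 12.3 with RA. The wild-type groups do not overlap (-1.08 ± 0.27, limma adjusted p = 0.013), while in GLP 3A library 1 with RA lies among the untreated ones (-0.39 ± 0.27, adjusted p = 0.25). On the TPM scale the wild-type difference was -0.64 and was not called. Cox7a1 made up 6.71% to 13.15% of Cox7a1 plus the broad form Cox7a2. It was present before RA and was called higher in neither genotype, and the skeletal and cardiac marker sums above were higher with RA; their part in its level was not tested.

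Ndufa4l2, a paralogue of Ndufa4 known as induced by hypoxia, had the largest RA difference of all members. It stood at 8.89 and 7.92 RPKM in wild type without RA and 0.380 and 0.491 with RA, and at 4.95 and 3.92 in GLP 3A without RA and 1.4 and 0.3198 with RA. It fell in both genotypes under all 4 scalings (-2.71 ± 0.27, limma adjusted p = 2.4e-04, and -1.60 ± 0.27, adjusted p = 0.0022). Its locus on chromosome 10 overlaps that of Shmt2, and reads of the pair may not be separable. Ndufa4 itself stood at 596 and 641 RPKM and then 375 and 390 in wild type, so that Ndufa4l2 dropped from 1.22% or more of the pair to 0.126% or less. In GLP 3A that share was 0.889% and 0.647% untreated and 0.390% and 0.0781% with RA.

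**Figure D4:**
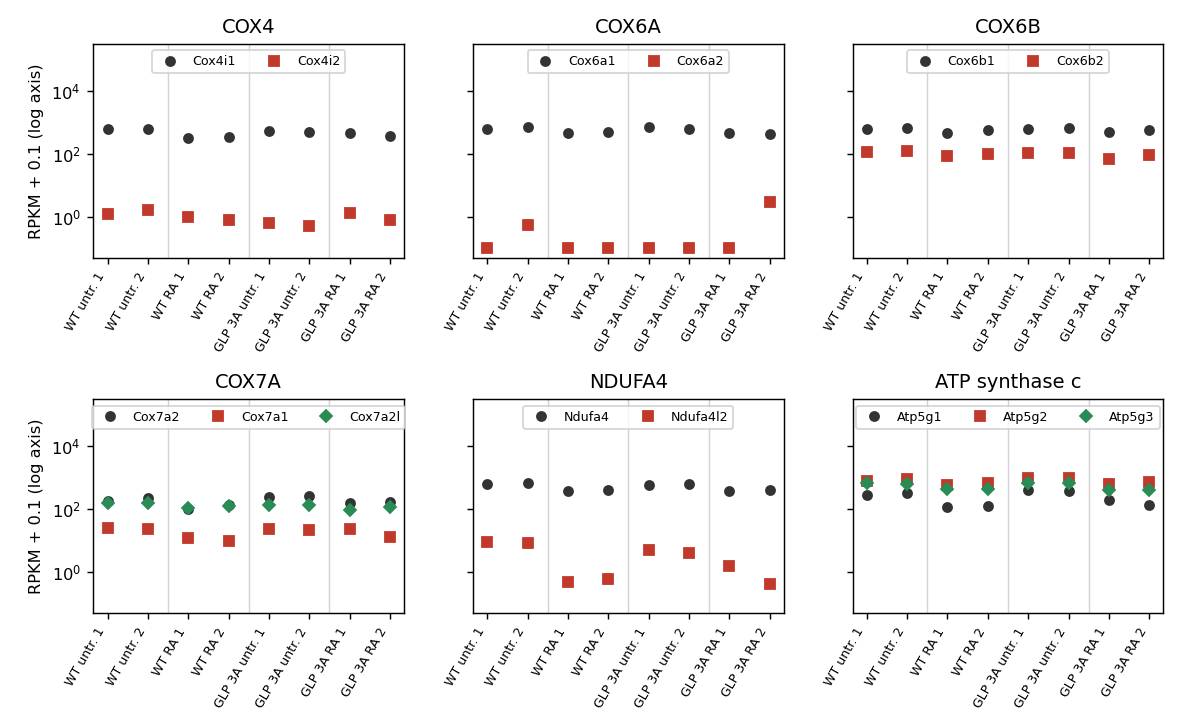
RPKM of the members of 6 isoform groups in each library (log axis, 0.1 RPKM added so that values listed at 0 can be drawn; untr., untreated). The tissue-restricted forms Cox4i2 and Cox6a2 lie far below the broad forms, Cox6b2 lies within 1 decade of Cox6b1 in every library, and Ndufa4l2 drops with RA in both genotypes.

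Genotype differences among the members were few, and those called without RA lay mostly on chromosome 1. Without RA, 4 of 81 members were called lower and 1 higher in GLP 3A, where 4.15% and 7.52% of all genes were called; the members' median difference was 0.0036, against 0.04 over all genes. It was 0.012 in libraries numbered 1 and -0.017 in those numbered 2, and with RA 0.11 and -0.00069. All 4 lower members, among them Ndufs1, Ndufa10 and Sdhc, lie on chromosome 1, which holds 6 members, and all 6 had differences below 0. Among all 710 tested genes of that chromosome 20.9% were called lower, with a median of -0.24, against 3.32% and 0.04 for genes outside chromosomes 1 and 11. With RA, 2 members were called lower, again on chromosome 1 and with Ndufa10 among them, and 3 higher, where 5.31% and 5.3% of all genes were called. Of the 710 tested genes of chromosome 1, 29.9% were then called lower, with a median of -0.31. Its 6 members had 33.3% and -0.28, and genes outside chromosomes 1 and 11 had 4.185% and -0.02. The share of all calls that were higher depended on the scale, at 64.4% as deposited and 49.7% on the TPM scale without RA, and 49.96% and 69.9% with RA. The 4 members on chromosome 11 all had differences above 0 in both states, with medians of 0.34 and 0.41, and the 1114 tested genes there had medians of 0.24 and 0.24. Of those 1114 genes, 19.75% were called higher without RA and 18.0% with RA. The members' medians there were 0.40 in libraries numbered 1 and 0.27 in those numbered 2 without RA, and 0.62 and 0.14 with RA. The other 71 tested members had medians of 0.0041 and 0.07, with 1 called without RA and 2 with RA; with RA the median was 0.11 in number 1 and 0.0019 in number 2. On chromosome 1 the medians were -0.35 and -0.43 without RA and -0.25 and -0.25 with RA.

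**Figure D5:**
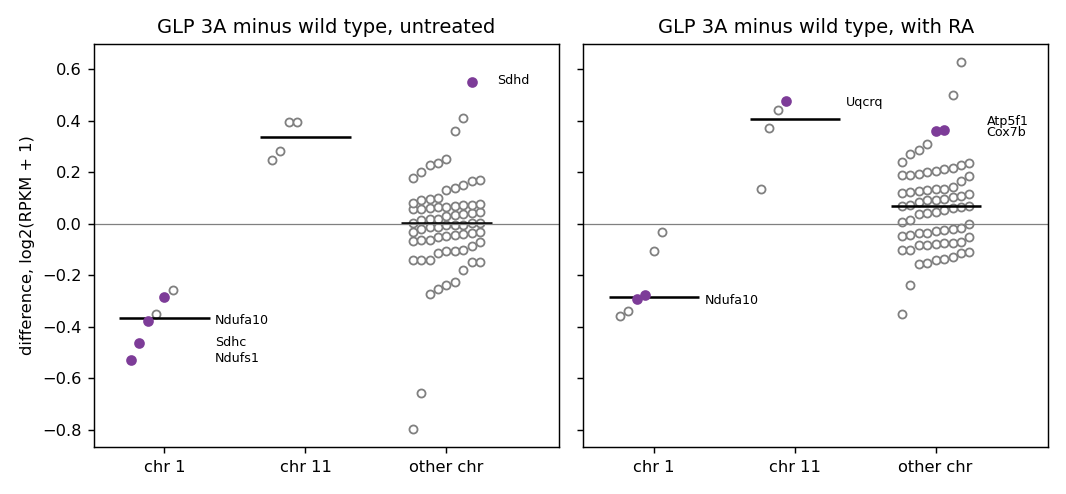
GLP 3A minus wild type difference, in log2(RPKM + 1), of each tested member by chromosome without RA (left) and with RA (right). Purple points passed the test, most of them named, and black bars are medians; the 6 members on chromosome 1 lie below 0 and the 4 on chromosome 11 above 0 in both states.

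Ndufs1, the large iron-sulphur subunit of complex I (chromosome 1, 63161044 to 63223396 in mm9), had levels of 87.9 and 79.4 RPKM in wild type without RA and 57.6 and 57.7 in GLP 3A without RA (-0.53 ± 0.11, limma adjusted p = 0.032). With RA it stood at 48.4 and 51.7, and 35.0 and 43.0 (-0.36 ± 0.11, adjusted p = 0.091). The wild-type values are the higher ones in both states, and the groups do not overlap. Its locus overlaps that of Gm11602. Ndufa10, an accessory subunit (94336295 to 94370335), was called lower in GLP 3A with and without RA, at 114 and 117 against 87.4 and 89.5 RPKM untreated (-0.38 ± 0.06, adjusted p = 0.016) and at 69.7 and 74.7 against 57.7 and 59.9 with RA (-0.29 ± 0.06, adjusted p = 0.040). The call with RA was lost on the TPM scale (-0.21, adjusted p = 0.10) and without the intensity trend (adjusted p = 0.057), and no member called lower with RA held under all 4 scalings.

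Sdhc, a membrane anchor of complex II, lies on chromosome 1 (173059287 to 173080734 in mm9). It stood at 117 and 120 RPKM in wild type without RA and 89.2 and 82.1 in GLP 3A without RA (-0.46 ± 0.08, limma adjusted p = 0.020), and at 94.2 and 103 against 91.8 and 101 with RA, where the groups overlap (-0.03 ± 0.08). Sdhd, the other membrane anchor of complex II, on chromosome 9 (50404444 to 50411954), went the opposite way. It stood at 100.2 and 107 RPKM in wild type without RA and 155 and 150 in GLP 3A without RA (0.55 ± 0.07, adjusted p = 0.0072), and at 73.4 and 78.1 against 84.7 and 88.7 with RA (0.19 ± 0.07, adjusted p = 0.13). RA responses of the 2 anchors were accordingly unequal: Sdhd -0.44 ± 0.07 in wild type and -0.81 ± 0.07 in GLP 3A, Sdhc -0.27 ± 0.08 and 0.17 ± 0.08. The tests of these differences between genotypes gave 0.43 ± 0.12 for Sdhc and -0.36 ± 0.10 for Sdhd, both with an adjusted p of 0.11.

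The 3 members called higher in GLP 3A with RA were Uqcrq of complex III, Cox7b of complex IV and Atp5f1 of complex V, all under all 4 scalings. With RA, Uqcrq (chromosome 11) had 174 and 199 RPKM in wild type against 273 and 248 in GLP 3A (0.48 ± 0.10, limma adjusted p = 0.034). Cox7b (chromosome X) stood at 137 and 134 against 172 and 176 (0.36 ± 0.06, adjusted p = 0.023). Atp5f1, the b subunit of the peripheral stalk (chromosome 3), stood at 135 and 146 against 184 and 179 (0.37 ± 0.07, adjusted p = 0.030), and its locus overlaps that of Wdr77. Without RA these genes differed by 0.25, -0.02 and -0.04, and none was called. Every genotype call rests on few libraries: with any 1 of the 4 untreated libraries left out, the members' calls without RA were lost, as were most calls over all genes. Such a fit leaves 1 library in a group. The differences were then -0.36 to -0.40 for Ndufa10 and -0.45 to -0.60 for Ndufs1. They were -0.40 to -0.52 for Sdhc and 0.51 to 0.60 for Sdhd. With RA, leaving out 1 library gave 0 to 9 members called higher, 9 without RA-treated GLP 3A replicate 2 (11.1%, against 8.74% of all genes), and 0 to 2 called lower. Fitting only the 4 libraries compared gave 7 higher and 10 lower without RA (8.64% and 12.3%, against 16.6% and 9.57% of all genes). With RA it gave 0 members, and 0.0303% and 0.0833% of all genes.

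The RA responses of the 2 genotypes were then compared directly. limma called 0 of 81 members, where 1.8% of all genes were called: 0.561% with a higher response in GLP 3A and 1.24% with a lower one (31.1% of calls higher as deposited and 53.1% on the TPM scale). At an unadjusted p under 0.05 there were 8 members (9.88%, against 20.9% of all genes): Atp5f1, Cox4i1, Cox4i2, Cox7b, Ndufa4l2, Ndufa7 and Sdhc with positive and Sdhd with negative differences. The smallest adjusted p was 0.083, for Cox7b (0.38 ± 0.09). Leaving out RA-treated GLP 3A replicate 2 leaves 1 library in that group. The differences were then 0.66 for Cox4i1, 0.99 for Cox4i2, 1.13 for Cox7a1 and 1.54 for Ndufa4l2, all of complex IV. In all 8 libraries they were 0.54, 0.78, 0.69 and 1.11. These 4 members were picked from the fit without replicate 2, and Cox4i2 was near the floor. The 2 RA-treated GLP 3A libraries differed in Cox7a1 (23.3 and 12.3 RPKM) and Ndufa4l2 (1.4 and 0.3198). In RA-treated GLP 3A replicate 2 pluripotency genes summed to 174 RPKM, against 376 in the other library of the group, and hepatocyte genes to 663 against 3.96. Their part in the differences was not tested.

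Related genes outside the name rule were taken from lists of known pathway members. Of 4 respiratory chain genes, Cyc1 (-0.89 in wild type and -0.85 in GLP 3A) and the broad cytochrome c gene Cycs (-0.72 and -0.51) were called lower with RA. Cyct, the testis form of cytochrome c, made up 3.82% and 3.55% of Cycs plus Cyct in wild type without RA and 43.1% and 38.5% in GLP 3A without RA, and 6.05% and 7% against 41.5% and 50.9% with RA. Assembly factors of complex I were called lower in 6 of 10 in wild type and 7 of 10 in GLP 3A, and those of complexes II to V in 10 of 21 in each, with Sco2, a copper chaperone of complex IV, and Tmem70, an ATP synthase assembly factor, higher in both. Nubpl, an iron-sulphur factor of complex I assembly, stood at -0.93 and -1.03, Ndufaf4 at -0.97 in wild type and Ndufaf2 at -1.04 in GLP 3A. Lrpprc, which stabilizes mitochondrial mRNA, stood at -1.19 and -1.38, Cox18 at -0.77 in wild type and Sco1 at -0.71 in GLP 3A. Mitochondrial ribosomal protein genes were called lower in 53 of 76 (4 higher) and 60 of 76 (0 higher), with medians of -0.50 and -0.70. Mrpl15 had the lowest values (-1.53 and -1.75), followed by Mrps18b in wild type (-1.35) and Mrps5 in GLP 3A (-1.57), and Mrpl41 (0.60) and Mrpl27 (0.59) were the most raised in wild type.

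The ADP/ATP carriers, which exchange the product of complex V across the inner membrane, changed in opposite directions. Slc25a5 fell from 586 and 595 RPKM to 240 and 234 in wild type (-1.31) and from 791 and 753 to 254 and 253 in GLP 3A (-1.60). Slc25a4, the form of heart and skeletal muscle, rose from 253 and 263 RPKM to 401 and 475 (0.76) and from 320 and 292 to 410 and 474 (0.53). Slc25a4 thus made up 27.9% to 30.7% of the pair in untreated libraries and 61.7% to 67.0% with RA. Ucp2, an uncoupling protein of the same carrier family, stood at -1.27 and -1.43. Of the 5 tested genes of that list, 3 were called lower in wild type and 4 in GLP 3A.

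Glycolysis genes had the lowest medians of the pathway lists on the deposited scale. With RA, 17 of 21 were called lower and 0 higher in wild type (median -1.25), and 19 and 1 in GLP 3A (median -1.26), and their share of summed RPKM went from 1.15% and 1.16% to 0.715% and 0.556% in wild type and from 1.04% and 1.08% to 0.651% and 0.562% in GLP 3A. Pfkp, a phosphofructokinase, fell by 4.57 and 3.55 on the log2 scale, and the pyruvate dehydrogenase kinase gene Pdk1 by 2.89 and 2.48. Eno2, an enolase gene, was the 1 called higher in GLP 3A (1.04). Genes of the tricarboxylic acid cycle and pyruvate entry were called lower in 11 of 17 in each genotype (medians -0.41 and -0.37), with Pdha1 at -1.28 and -1.26, Idh3a at -1.24 in wild type and Pdhb at -1.38 in GLP 3A; Dlst was called higher in wild type (0.37). Among regulators of mitochondrial biogenesis, 9 of 16 tested were called lower in wild type and 11 in GLP 3A, including Ssbp1 (-1.04 and -0.80), Pprc1 (-1.001 and -1.09) and Gabpa (-0.98 and -1.04). The Gabpa locus overlaps that of Atp5j. Esrra, which encodes an estrogen-related receptor, was called higher in both (0.55 and 0.48), and Polg in GLP 3A (0.66). Ppargc1a was at 0.198 RPKM or less in every library.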

How the data were processed

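RNA was measured by single-end RNA-seq of total RNA in 8 libraries, 2 in each of 4 groups. The authors deposited RPKM values per gene symbol, 23234 per library. Bowtie 0.12.7, SAMtools, TopHat, Cufflinks and the build mm9 appear in the submitters' processing notes, without their roles. The series' other 32 samples, chromatin libraries and inputs, were not analysed here, and 12 symbols not listed for every library were left out. RPKM carries no read counts, so no counting interval is given; relative depth was read from the step size of low values, and the shallower libraries numbered 2 are less precise for low genes. limma 3.58.1 in R 4.3.3 was fitted to log2(RPKM + 1), with a filter of 1 RPKM in 2 or more libraries and 4 group means. It used an intensity trend and Benjamini-Hochberg adjustment, and was checked on simulated data. Those data had independent spread between libraries and few changed genes, unlike the RA comparisons. The check therefore does not cover the scale of the libraries or deviations that same-numbered libraries share. The 5 comparisons were RA in each genotype, genotype in each state and the difference of the RA responses.

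Genes were named if they belong to an isoform group or the core of a complex, were among the 8 largest called differences in either direction with groups that do not overlap, were the most abundant or most changed of a complex, went against its direction or stayed under 1 RPKM; from pathway lists, up to 2 of the largest called in each direction were named for the RA comparisons, and between genotypes only Cyct. Others, such as the uncalled complex I members and Ppargc1a, were named after their values were seen. Members and lists were chosen with earlier results of these data known. Promoters came from a RefSeq table of GRCm38.p6, and no coordinates were converted. Alternatives covered pseudocount, filter, scaling, trend, robust fitting, the replicate block, single libraries, chromosomes 1 and 11, the 4 libraries compared alone and a 2-fold requirement; libraries numbered 1 alone were added after seeing the data. The values of 1 member are not reported here by name; it stays in all counts and medians.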

Additional observations from a re-analysis of the deposited data

How the results depend on the processing

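The settings that changed most results were the scalings; the pseudocount (0.1 or 0.5 RPKM) changed no count of members by over 1.5 times. On the TPM scale 10 members were called higher and 23 lower with RA in wild type (median -0.15), and 26 and 11 in GLP 3A (median 0.0796). Median-of-ratios scaling gave 3 higher and a median of -0.51 in wild type, and 4 higher and -0.38 in GLP 3A. Quantile normalization gave 5 higher, 38 lower and -0.25 in wild type, and 14, 18 and -0.039 in GLP 3A. With each of these scalings the share of all genes called higher, given above, was larger than that of the members. The genotype median without RA turned to -0.074, -0.060 and -0.050 on these 3 scales, and with RA it was 0.15 on the TPM scale, where 5 members were higher and 0 lower. The median difference of the RA responses was 0.21, 0.13 and 0.18 on these scales and 0.098 in libraries numbered 1 alone. Asking also for a 2-fold difference left 5 members lower and 0 higher with RA in each genotype, and 0 in either direction between genotypes. The share of all genes that met this rule was not computed. The 1 member higher with RA in wild type went to 0 with a filter of 5 RPKM, without the intensity trend, with robust fitting, with the replicate block and in the 4 libraries compared alone. In the genotype comparison with RA, 1 member was lower in GLP 3A than in wild type with a filter of 5 RPKM, quantile normalization or robust fitting. In that comparison 0 were lower without the trend, without chromosomes 1 and 11, or in the 4 libraries alone, which gave 0 higher too. In the genotype comparison without RA, 0 members were lower without chromosomes 1 and 11. There the 4 libraries alone gave 7 higher and 10 lower. Leaving out 1 library gave, with RA, 0 to 1 higher in wild type and 1 to 2 in GLP 3A. Between genotypes without RA it gave 0 to 2 higher and 0 to 6 lower, with a median of -0.015 to 0.031, and with RA 0 to 9 higher and 0 to 2 lower. For the difference of responses it gave 0 to 4 higher and a median of -0.0069 (without RA-treated wild-type replicate 1) to 0.12. Same-numbered libraries deviated together (r of 0.169 to 0.355 over pairs of groups), but with only 2 numbers this is no evidence of pairing. With the number as a replicate block, 63 members were lower with RA in wild type, and 66 lower and 1 higher in GLP 3A. Between genotypes 4 were lower and 1 higher without RA, 2 lower and 4 higher with RA, and 0 for the difference of responses. Of all genes, 36% were lower with RA in wild type and 39.3% in GLP 3A, and 34.6% and 33.5% higher. For the genotype comparisons 4.55% were lower and 8.64% higher without RA, and 6.18% and 6.3% with RA. For the difference of responses 1.02% were lower and 0.485% higher. The cause of the changes between settings was not tested. On the TPM scale the RA difference in wild type turned to these positive log2 values: Atp5d 0.23, Atp5g2 0.0194, Cox5b 0.29, Cox6a1 0.00636, Cox6b1 0.11, Cox7a2l 0.0133, Ndufa3 0.37, Ndufs3 0.27, Ndufs7 0.13, Sdha 0.11, Sdhb 0.11, Sdhc 0.21 and Sdhd 0.0284. On the TPM scale the RA difference in GLP 3A turned to these positive log2 values: Atp5d 0.34, Atp5e 0.19, Atp5f1 0.35, Atp5g2 0.0858, Cox4i1 0.35, Cox5b 0.60, Cox6a1 0.12, Cox6b1 0.34, Cox6b2 0.20, Cox7a2l 0.30, Cox7b 0.16, Ndufa10 0.0513, Ndufa3 0.63, Ndufa4 0.0496, Ndufs1 0.0704, Ndufs3 0.25, Ndufs7 0.12, Ndufs8 0.00269, Ndufv1 0.0716, Ndufv2 0.0534, Sdha 0.13, Sdhb 0.28, Uqcrc2 0.0339 and Uqcrq 0.057. With quantile normalization the RA difference in wild type turned to these positive log2 values: Atp5b 0.00123, Atp5d 0.19, Atp5g2 0.0566, Cox5b 0.40, Cox6a1 0.0466, Cox6b1 0.13, Ndufa3 0.36, Ndufs7 0.0157 and Sdhc 0.0673. With quantile normalization the RA difference in GLP 3A turned to these positive log2 values: Atp5b 0.00721, Atp5d 0.25, Atp5e 0.13, Atp5f1 0.28, Atp5g2 0.29, Cox4i1 0.38, Cox5b 0.75, Cox6a1 0.18, Cox6b1 0.44, Cox7a2l 0.18, Cox7b 0.10, Ndufa3 0.68, Ndufa4 0.12, Ndufs3 0.0165 and Sdhb 0.00901.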
